A study of Mus musculus with 4 samples.

Results

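Claudins and their partners form the tight junction, and 10 of its genes were followed here through the transcriptome of mouse embryonic stem cells with and without glycogen synthase kinase 3. They were taken by symbol from the deposited table of 46603 gene IDs, 1 row for each, and comprise 6 claudins (Cldn1, Cldn3, Cldn4, Cldn6, Cldn7 and Cldn9) and 4 other junction genes (Ocln, Tjp1, Cgn and Crb3). All 10 had a mean normalized count of at least 10 over the 4 libraries. The series holds 2 biological replicates of Gsk3a-/-;Gsk3b-/- cells and 2 of wild-type cells, measured by sequencing of polyadenylated RNA. All were labelled embryonic day 16 and were grown on a feeder layer of irradiated embryonic fibroblasts of the mouse, with serum and leukaemia inhibitory factor. The series' design text names another embryonic day than the sample labels. The table separates no feeder RNA from that of the stem cells. The labels do not describe the alleles or say whether a genotype is 1 clone.

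The table compares a group B with a group A, and nothing in its header or the labels ties either letter to a genotype, so differences are given as group B over group A. It gives group means, which are sums of whole reads of 2 libraries weighted by their size factors. Whole reads of each library could be recovered from them, and the libraries are called B1, B2, A1 and A2, numbers that are not those of the labels. A normalized count is a gene's reads divided by its library's size factor. Recovered totals ran from 112655210 reads in B2 to 146326307 in B1. Gsk3a, 1 of the genes deleted in the study, had 1697 normalized counts in B1 and 1347 in B2, against 6353 in A1 and 7104 in A2. Gsk3b had 5051 in B1 and 5002 in B2, against 5438 in A1 and 6285 in A2. A gene can keep a counted transcript after part of it is deleted. Markers of embryonic stem cells were abundant in every library, with a summed level of 561727 normalized counts per kilobase of exon in B1, 587775 in B2, 587278 in A1 and 616689 in A2. Of the 7 markers 5 had both B libraries below both A libraries (26.0% of all tested genes), and their median log2 fold change was -0.30. The authors' test and limma each called 0 of them. At an unadjusted p under 0.05 the authors' test had 0 higher and 2 lower, where 7.90% of genes whose mean reached 10 were lower. Limma had 0 higher and 5 lower at that level, where 10.4% of all tested genes were lower.

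Tight junctions seal the space between neighbouring epithelial cells and separate the apical from the basolateral membrane. Claudins and occludin cross the membrane, with claudins setting which ions and solutes pass between the cells. The ZO proteins and cingulin tie these strands to actin below the membrane, and the Crumbs complex, with Crb3 as its membrane protein, positions the junction at the apical border. Mouse embryonic stem cells are themselves epithelial-like cells that adhere through E-cadherin, and several claudins are known from the early embryo. Snail and Zeb proteins are repressors known to bind E-box sequences near the starts of E-cadherin, claudin and occludin genes.

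That E-box, CACCTG or its reverse complement CAGGTG, was looked for in the RefSeq promoters of the genes (GRCm38.p6, 250 bases before to 50 after a start). The promoter table held 12 entries for 9 of the 10 genes, all but Cldn9. The E-box stood in 8 of the 12 entries, those of Cldn3, Cldn4, Cldn6, Cldn7, Crb3 and Ocln, whereas 20.2% of all 32851 promoters held it. By gene, 6 of 9 held it. The entries are not independent, since the Crb3 windows overlap and hold the same E-boxes, and the Ocln windows overlap and share an E-box. In the 200 bases before the start the E-box stood in 6 of the 12 entries, against 13.9% of all promoters. The TCF/LEF motif CTTTGT stood in 2 entries, those of Cldn1 and Cldn4 (18.7% of all promoters), and CTTTGA in 0 (16.0%). The Grainyhead-like motif AACNNGTT stood in 1 entry, that of Cgn (4.20% of all promoters). Motifs were matched on both strands, and the letters do not show that a factor binds there. One promoter of each gene with the E-box is printed, 5′ to 3′ on the gene's strand, because these are the genes whose regulatory sequence carries the letters of the repressors described above. Capitals mark the E-box, which occurs 1 time in the Cldn3 window, 2 times in those of Cldn4, Cldn6, Cldn7 and Ocln, and 4 times in that of Crb3. The windows are chr5:134985964-134986263 on the plus strand for Cldn3, chr5:134946885-134947184 on the minus strand for Cldn4 and chr17:23679115-23679414 on the plus strand for Cldn6. For Cldn7 the window is chr11:69965171-69965470 on the plus strand, for Crb3 chr17:57061981-57062280 on the plus strand and for Ocln chr13:100552449-100552748 on the minus strand.
Cldn3: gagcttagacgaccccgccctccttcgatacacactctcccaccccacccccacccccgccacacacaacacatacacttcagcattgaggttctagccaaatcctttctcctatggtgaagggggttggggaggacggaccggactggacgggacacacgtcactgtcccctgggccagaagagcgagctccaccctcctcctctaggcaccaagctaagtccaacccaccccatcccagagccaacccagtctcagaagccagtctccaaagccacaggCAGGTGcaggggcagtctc
Cldn4: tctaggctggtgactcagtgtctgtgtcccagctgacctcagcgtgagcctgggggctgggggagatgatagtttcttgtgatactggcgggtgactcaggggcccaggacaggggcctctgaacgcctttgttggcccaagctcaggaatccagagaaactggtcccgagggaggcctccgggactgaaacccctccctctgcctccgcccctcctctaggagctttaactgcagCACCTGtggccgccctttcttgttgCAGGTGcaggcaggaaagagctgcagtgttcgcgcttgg
Cldn6: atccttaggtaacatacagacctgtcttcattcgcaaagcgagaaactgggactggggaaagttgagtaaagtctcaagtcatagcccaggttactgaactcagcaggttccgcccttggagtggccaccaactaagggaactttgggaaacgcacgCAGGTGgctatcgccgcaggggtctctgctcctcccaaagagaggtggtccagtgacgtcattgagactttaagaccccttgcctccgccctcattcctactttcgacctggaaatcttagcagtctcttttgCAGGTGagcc
Cldn7: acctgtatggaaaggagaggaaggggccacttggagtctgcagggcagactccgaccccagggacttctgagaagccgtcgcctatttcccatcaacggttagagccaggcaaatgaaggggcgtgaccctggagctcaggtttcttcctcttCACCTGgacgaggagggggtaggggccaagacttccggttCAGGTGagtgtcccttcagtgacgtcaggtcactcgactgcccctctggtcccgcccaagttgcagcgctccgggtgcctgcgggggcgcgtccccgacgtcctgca
Crb3: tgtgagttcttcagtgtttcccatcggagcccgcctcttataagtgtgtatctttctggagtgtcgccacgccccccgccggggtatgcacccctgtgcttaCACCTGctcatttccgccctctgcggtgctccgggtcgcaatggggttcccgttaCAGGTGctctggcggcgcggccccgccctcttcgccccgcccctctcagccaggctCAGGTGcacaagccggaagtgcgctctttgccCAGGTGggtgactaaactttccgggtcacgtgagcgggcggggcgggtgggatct
Ocln: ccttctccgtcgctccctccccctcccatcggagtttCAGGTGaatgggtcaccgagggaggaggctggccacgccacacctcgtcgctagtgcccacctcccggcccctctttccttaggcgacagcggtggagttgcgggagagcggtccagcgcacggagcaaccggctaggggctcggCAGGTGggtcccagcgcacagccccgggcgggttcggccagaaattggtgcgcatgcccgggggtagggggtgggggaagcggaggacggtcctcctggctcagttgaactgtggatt

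Cldn9 fell in group B and was the only one of the 10 genes to pass the threshold of the authors' test, an adjusted p of 0.05. Claudin 9 is a close relative of claudin 6 that is known in mice for its role in the inner ear. Its gene (ENSMUSG00000066720, chromosome 17, 23682584 to 23684026, mm10, minus strand) lies end to end with Cldn6, with 137 bases between the annotated ends. Cldn9 had 17.4 normalized counts in B1 and 15.4 in B2, from 19 and 13 reads, against 71.9 in A1 and 68.2 in A2, from 78 and 69 reads. Both B libraries lay below both A libraries, and the replicates of each group were close. The log2 fold change was -2.09 with an adjusted p of 0.0225 in the authors' deposited table. In limma on the recovered reads it was -2.03 (SE 0.36), with an adjusted p of 0.0554 that misses the threshold. Other limma settings gave adjusted p values of 0.0486 to 0.0713. Leaving out a library gave limma adjusted p values of 0.0492 without B1, 0.0540 without B2, 0.319 without A1 and 0.391 without A2. The log2 fold change lay between -2.12 and -1.95 in those 4 fits. No stretch of 50 bases in its annotated transcripts occurs in a transcript of another gene, Cldn6 included.

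The count of 1 lower and 0 higher of 10 genes stands beside 3.46% of 30237 genes called in the table, 1.54% higher and 1.92% lower. Among the 20465 genes whose mean reached 10 the authors' test called 5.12%, 2.28% higher and 2.84% lower. At an unadjusted p under 0.05 the authors' test gave 0 genes higher and 2 lower, Cldn3 and Cldn9. That level was reached by 10.5% of 30237 genes and by 15.3% of those whose mean reached 10 (7.45% higher, 7.90% lower). Limma gave 0 genes past its adjusted threshold, where 2.01% of 20465 genes passed (0.977% higher, 1.03% lower), and 1 lower and 0 higher at an unadjusted p under 0.05, which 20.7% of all tested genes reached (10.3% higher, 10.4% lower). The median log2 fold change of the 10 genes was 0.06 in the authors' deposited table, against 0.01 over all genes whose mean reached 10. Of the 10 genes 2, Cldn3 and Cldn9, had B libraries that did not overlap the A libraries, whereas 52.5% of all tested genes were so separated, 26.4% with both B libraries above and 26.0% with both below.

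**Figure D1:**
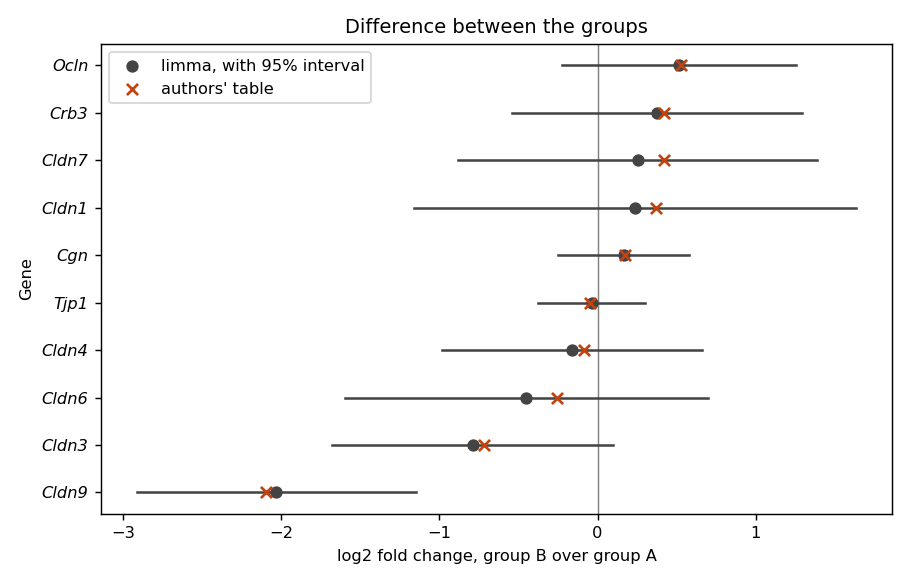
Log2 fold change of each of the 10 genes, group B over group A. Points with lines are limma estimates on log2(normalized count + 1) with their 95% intervals, and crosses are values of the authors' deposited table. Only the interval of Cldn9 lies wholly below 0.

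Among the 6 claudins Cldn6 and Cldn4 were the most abundant, and neither differed between the groups beyond the spread inside group B. Claudin 6 is known as a claudin of the early embryo and of pluripotent cells. Cldn6 (ENSMUSG00000023906, chromosome 17, 23679249 to 23682446, plus strand) had 1019 normalized counts in B1 and 2929 in B2, against 2325 in A1 and 2394 in A2. B1 lay below and B2 above both A libraries, while the A libraries differed little. The log2 fold change was -0.26 with an adjusted p of 1 in the authors' deposited table. Limma gave -0.45 (SE 0.46, adjusted p = 0.642). The sign depended on the B library kept, with -1.21 without B2 (adjusted p = 0.0148) and 0.31 without B1 (adjusted p = 0.267).

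Cldn4 and Cldn3 lie 39279 bases apart on chromosome 5, and in humans both proteins bind the enterotoxin of Clostridium perfringens. Cldn4 (ENSMUSG00000047501, 134945119 to 134946934, minus strand) had 3398 normalized counts in B1 and 6892 in B2, against 6107 in A1 and 4790 in A2. The A libraries lay between the B libraries. Its log2 fold change was -0.08 with an adjusted p of 1 in the authors' deposited table, and limma gave -0.16 (SE 0.33, adjusted p = 0.840). Cldn3 (ENSMUSG00000070473, 134986214 to 134987472, plus strand) had 132 in B1 and 259 in B2, against 297 in A1 and 346 in A2. Here both B libraries were below both A libraries, and B1 was well below B2. The authors' deposited table puts its log2 fold change at -0.72 (adjusted p 0.453), and limma gave -0.79 (SE 0.36, adjusted p = 0.290). The difference thus missed the threshold in both tests. Cldn3 overlaps Wbscr25 on the other strand by 40 bases, and no source used here says whether counting kept to the strand.

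Cldn7 and Cldn1 also differed more inside group B than between the groups. Claudin 7 is a claudin of the basolateral side that binds the adhesion protein EpCAM. Cldn7 (ENSMUSG00000018569, chromosome 11, 69964779 to 69967885, plus strand) had 220 normalized counts in B1 and 586 in B2, against 286 in A1 and 317 in A2. Again the A libraries lay between B1 and B2. The log2 fold change was 0.42 with an adjusted p of 1 in the authors' deposited table, and limma gave 0.25 (SE 0.46, adjusted p = 0.810). Claudin 1 is needed for the water barrier of the mouse epidermis. Cldn1 (ENSMUSG00000022512, chromosome 16, 26356642 to 26371841, minus strand) had 9 reads in B1 and 16 in B2, against 11 in A1 and 11 in A2. At this depth no difference was detectable (limma log2 fold change 0.24, 95% interval -1.16 to 1.64, adjusted p = 0.863).

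The 4 other junction genes did not pass either test. Occludin is a membrane protein of the junction strands. Ocln (ENSMUSG00000021638, chromosome 13, 100496507 to 100552718, minus strand) had 301 normalized counts in B1 and 459 in B2, against 221 in A1 and 306 in A2. B2 was the highest library, and B1 lay just below A2. The log2 fold change was 0.53 with an adjusted p of 0.959 in the authors' deposited table, and limma gave 0.51 (SE 0.30, adjusted p = 0.395). Crb3, the Crumbs protein of epithelial cells, had 460 in B1 and 894 in B2, against 402 in A1 and 608 in A2 (ENSMUSG00000044279, chromosome 17, 57059105 to 57065918, plus strand). The groups overlapped, with the higher A library above the lower B library. Its log2 fold change was 0.42 with an adjusted p of 1 in the authors' deposited table, and limma gave 0.38 (SE 0.37, adjusted p = 0.627). Crb3 overlaps Slc25a23 and Dennd1c on the other strand by 773 bases in all, so its count is uncertain if reads were counted without regard to strand.

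Tjp1 and Cgn had the narrowest intervals. Tjp1 encodes ZO-1, the scaffold that binds claudins and occludin to actin. Tjp1 (ENSMUSG00000030516, chromosome 7, 65296165 to 65527781, minus strand) had 15978 normalized counts in B1 and 15826 in B2, against 14352 in A1 and 18538 in A2. Both B libraries lay between the A libraries. In the annotation Tjp1 overlaps Gm44795 on the other strand by 319 bases. It also overlaps Gm44792 and Gm44794, which lie on its own strand. Limma gave a log2 fold change of -0.04 with a 95% interval of -0.38 to 0.30 (adjusted p = 0.917), and the authors' deposited table gives -0.05 with an adjusted p of 1. Cgn, which encodes cingulin of the cytoplasmic plaque, had 3436 in B1 and 4408 in B2, against 3192 in A1 and 3775 in A2 (ENSMUSG00000068876, chromosome 3, 94760069 to 94786492, minus strand). These values overlapped between the groups. Its limma log2 fold change was 0.16 with a 95% interval of -0.25 to 0.58 (adjusted p = 0.639), and the authors' deposited table gives 0.17 with an adjusted p of 1. Of the 50-base stretches of annotated Cgn transcripts, 17.2% also occur in transcripts of other genes. For the other 9 genes this share was 0.

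Levels can be set side by side per kilobase of merged exons, here as the mean of the 4 libraries in normalized counts per kilobase. Cldn4 was highest at 2917, followed by Tjp1 at 2071, Cldn6 at 1259, Cgn at 615 and Crb3 at 378. Cldn3 followed at 205, Cldn7 at 181, Ocln at 76.2, Cldn9 at 29.9 and Cldn1 at 2.49. The levels of neighbours in this order overlapped across the 4 libraries for Cldn4 and Tjp1, and for each step from Cldn6 through Cgn, Crb3 and Cldn3 to Cldn7. They did not overlap between Tjp1 and Cldn6, Cldn7 and Ocln, Ocln and Cldn9, or Cldn9 and Cldn1. Among the 6 claudins Cldn4 and Cldn6 thus had the highest levels per kilobase and Cldn1 the lowest.

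**Figure D2:**
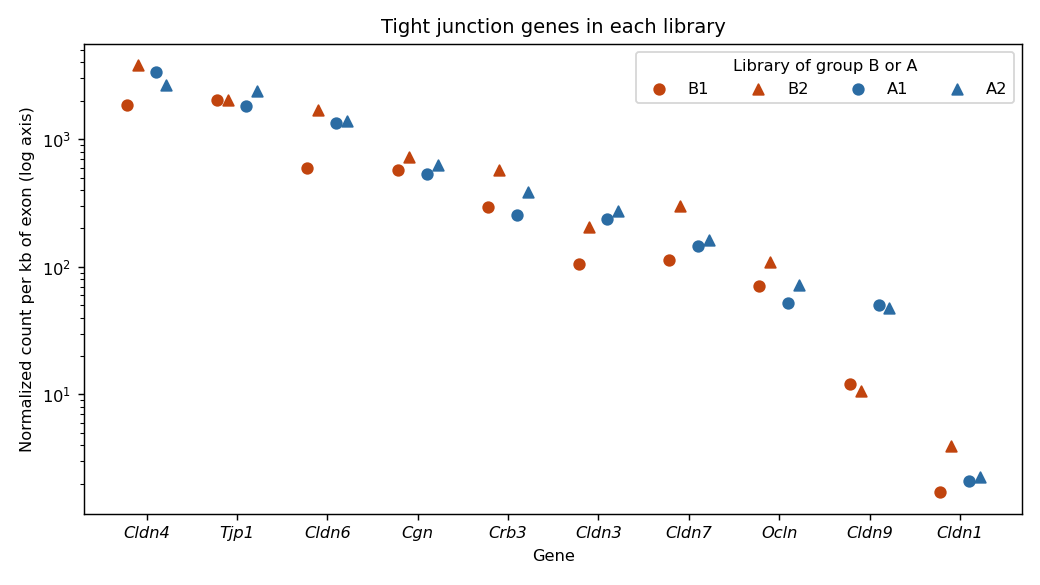
Normalized count per kilobase of merged exon on a log axis for each of the 10 genes, ordered by the mean of the 4 libraries. Red points are libraries of group B and blue points those of group A. Cldn9 is the gene whose groups stand clearly apart, while B2 lies above B1 for most claudins.

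Most of these genes differed between the libraries of group B. On the scale of log2(normalized count + 1), 8 of the 10 genes were higher in B2 than in B1, as were 47.4% of the 20465 genes tested. The difference of B2 over B1 was 2.87-fold for Cldn6, 2.66-fold for Cldn7, 2.15-fold for Cldn1 and 2.03-fold for Cldn4. Those 4 of 10 genes were at least 2-fold higher in B2, against 6.12% of all tested genes. Cldn3 followed at 1.95-fold, Crb3 at 1.94-fold, Ocln at 1.52-fold and Cgn at 1.28-fold, while Tjp1 (0.99-fold) and Cldn9 (0.89-fold) were nearly level. In group A 8 of the 10 genes were higher in A2 than in A1, and 0 of the 10 were 2-fold apart. The median log2 difference of A2 over A1 was 0.19 for the 10 genes, against 0.003 over all tested genes. The median absolute log2 difference of the 10 genes was 0.96 between B2 and B1 and 0.23 between A2 and A1, against 0.24 and 0.18 over all tested genes. In 8 of the 10 genes the difference between B2 and B1 exceeded the difference between the groups, as it did in 49.0% of all tested genes. With 2 libraries a group, the limma intervals given above rest on the spread inside both groups and on the variance trend over all tested genes.

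Markers of other cells also moved between the libraries. The 12 feeder fibroblast markers summed to 9331 normalized counts per kilobase in B1, 35148 in B2, 26801 in A1 and 15717 in A2. All 12 were higher in B2 than in B1, and 0 of 12 were higher in A2 than in A1. The 6 claudins summed to 2695 in B1, 6018 in B2, 5148 in A1 and 4516 in A2, the same order of libraries. Cldn4 made up most of each sum, with 1871 in B1, 3795 in B2, 3363 in A1 and 2637 in A2. Cldn6, the next, had 592 in B1, 1702 in B2, 1351 in A1 and 1391 in A2, so its A libraries stood in the other order. Taken singly, 5 of the 6 claudins were higher in B2 than in B1, and 4 of 6 were higher in A2 than in A1, where the fibroblast markers were lower. The 16 endoderm markers summed to 72968 in B1, 39756 in B2, 26167 in A1 and 19081 in A2, and 1 of the 15 with a mean of at least 10 was higher in B2 than in B1. Markers of surface and gut epithelium were low, with sums of 84.9 in B1, 187 in B2, 114 in A1 and 117 in A2 over 5 genes. The 8 trophectoderm markers summed to 3487 in B1, 2852 in B2, 2515 in A1 and 2751 in A2. For the 6 macrophage markers the sums were 2458 in B1, 2652 in B2, 2428 in A1 and 2150 in A2. Single macrophage markers differed more than these sums. Their median log2 fold change was 1.64 in the authors' deposited table. The authors' test called 2 of the 6 higher and 0 lower, beside 2.28% and 2.84% of genes whose mean reached 10. Limma called 1 higher and 0 lower, beside 0.977% and 1.03% of all tested genes. In 5 of the 6 the lower B value exceeded the higher A value (26.4% of all tested genes). In the remaining 1 the higher B value fell short of the lower A value (26.0%). No list had a marker at 0 in every library, and 1 endoderm marker, Afp, was at 0 in some library. The part of these cells in the claudin values was not tested, and in bulk RNA fewer cells of a type cannot be told apart from less RNA per cell.

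**Figure D3:**
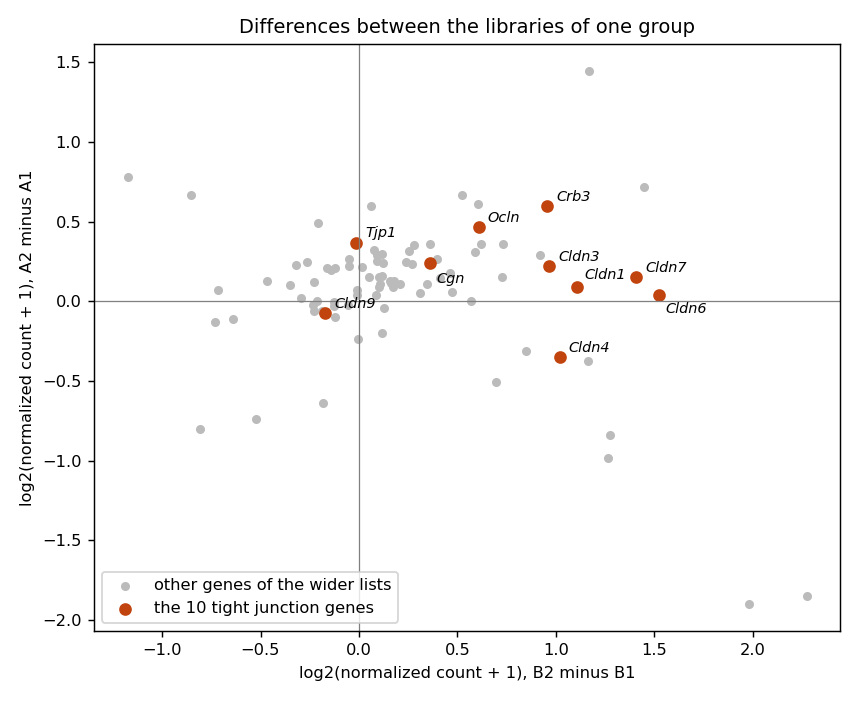
Difference between the libraries of each group on the log2(normalized count + 1) scale, B2 minus B1 across and A2 minus A1 upward. Red points are the 10 genes and grey points other junction, polarity and epithelial genes. The claudins other than Cldn9 lie to the right, from 0.97 for Cldn3 to 1.52 for Cldn6.

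Other claudins gave no call. Among 17 further claudins only 6 had a mean of at least 10, and 3 had no read in any library. The authors' test, and limma over those 6, each called 0 higher and 0 lower. Each had 0 higher and 2 lower at an unadjusted p under 0.05, beside 15.3% of all genes whose mean reached 10 in the authors' test and 20.7% in limma. Cldn12, a claudin without the usual binding end for ZO proteins, was the most abundant, with 5767 normalized counts in B1 and 4922 in B2, against 4162 in A1 and 4524 in A2. Cldn12 was thus higher in both B libraries, by 0.30 on the log2 scale in the authors' deposited table with an adjusted p of 0.642. Cldn19 had 197 in B1 and 209 in B2, against 228 in A1 and 234 in A2 (log2 fold change -0.18, adjusted p of 1, authors' deposited table). The 11 claudins with a mean under 10 had at most 21 reads in a library.

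Among 11 other membrane proteins of the tight junction 1 rose and 2 fell in the authors' test. That test called 2.28% of genes whose mean reached 10 higher and 2.84% lower. At an unadjusted p under 0.05 it had 3 higher and 2 lower of the 11, beside 7.45% and 7.90%. Lsr, an angulin of the corners where 3 cells meet, had 3626 normalized counts in B1 and 3330 in B2, against 1383 in A1 and 1597 in A2. In the authors' deposited table Lsr rose by 1.22 (log2, adjusted p 6.56e-08), and limma gave an adjusted p of 0.0309. Ildr1, another angulin of those corners, had 5984 in B1 and 5350 in B2, against 8284 in A1 and 9582 in A2. It fell by 0.66 in the authors' deposited table (adjusted p 0.0183) and missed the threshold in limma (adjusted p = 0.0623). Jam2, an immunoglobulin-type adhesion molecule of the junction, had 8410 in B1 and 10419 in B2, against 20038 in A1 and 20786 in A2. It fell by 1.12 in the authors' deposited table (adjusted p 1.58e-07), with a limma adjusted p of 0.0309. In each of these 3 genes the groups did not overlap. The median over the 11 genes was 0.35 (log2) in the authors' deposited table.

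Of 15 other plaque proteins 1 rose and 0 fell in the authors' test. That test called 2.28% of genes whose mean reached 10 higher and 2.84% lower. At an unadjusted p under 0.05 it had 4 higher and 0 lower of the list, beside 7.45% and 7.90%. The gene that passed was Patj, which links the Crumbs complex to the junction and stands in the table under its older symbol Inadl. Patj had 1385 normalized counts in B1 and 1179 in B2, against 451 in A1 and 445 in A2. The rise was 1.52 on the log2 scale in the authors' deposited table (adjusted p 1.28e-09) and passed in limma (adjusted p = 0.0309). Sympk, an RNA 3′ end processing scaffold also found at tight junctions, had 27049 in B1 and 29409 in B2, against 19758 in A1 and 23315 in A2, and the authors' deposited table puts its log2 fold change at 0.39 (adjusted p 0.364). Ybx3, a partner of ZO-1, had 41277 in B1 and 47747 in B2, against 46380 in A1 and 49941 in A2 (log2 fold change -0.11, adjusted p of 1, authors' deposited table). The list's median log2 fold change was 0.07 in that table.

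Apical polarity genes, the partners of Crb3 and of the PAR and Scribble complexes, had 0 of 17 members past the threshold in the authors' test, and 0 of the 15 tested in limma. At an unadjusted p under 0.05 the authors' test had 1 higher and 0 lower, and limma 3 higher and 0 lower of 15, against 20.7% of all genes in limma and 15.3% of those whose mean reached 10 in the authors' test. Prkci, the kinase of the PAR complex, had 28984 normalized counts in B1 and 29263 in B2, against 26651 in A1 and 30972 in A2. Dlg1, a scaffold of the Scribble group, had 17921 in B1 and 19406 in B2, against 15795 in A1 and 19439 in A2. Both genes overlapped between the groups, with log2 fold changes of 0.02 and 0.08 and adjusted p values of 1 in the authors' deposited table.

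Of 26 genes of the epithelial programme 2 rose and 2 fell in the authors' test. Over genes whose mean reached 10 that test called 2.28% higher and 2.84% lower. At an unadjusted p under 0.05 it had 6 higher and 2 lower of the 26, beside 7.45% and 7.90%. Limma called 2 higher and 1 lower, beside 0.977% and 1.03% of all tested genes. At an unadjusted p under 0.05 limma had 8 higher and 4 lower, beside 10.3% and 10.4%. Grhl2, a transcription factor known to drive E-cadherin and claudin 4 in mouse epithelia, had 545 normalized counts in B1 and 394 in B2, against 1682 in A1 and 1840 in A2. In the authors' deposited table Grhl2 fell by 1.91 (log2, adjusted p 3.02e-15), and limma gave an adjusted p of 0.0309. Epcam, an adhesion protein that binds claudin 7, had 4225 in B1 and 5857 in B2, against 7531 in A1 and 7840 in A2. Epcam fell by 0.61 in the authors' deposited table (adjusted p 0.0277) and did not pass in limma (adjusted p = 0.123). Krt18, a keratin of simple epithelia, rose by 1.72 (adjusted p 1.08e-13) and Lad1, a protein tied to keratin and actin filaments, by 1.67 (adjusted p 1.80e-13) in the authors' deposited table. Krt18 had 4464 in B1 and 3939 in B2, against 1551 in A1 and 996 in A2, and Lad1 had 2670 in B1 and 2663 in B2, against 909 in A1 and 772 in A2. Limma gave adjusted p values of 0.0337 for Krt18 and 0.0255 for Lad1. Endoderm markers, given above, were also higher in both B libraries, and their part in these differences was not tested. Cdh1, which encodes E-cadherin, had 48828 in B1 and 44180 in B2, against 30562 in A1 and 34969 in A2. Both B libraries were the higher, and the log2 fold change of 0.51 missed the threshold with an adjusted p of 0.0906 in the authors' deposited table. Jup, or plakoglobin, had 15746 in B1 and 17176 in B2, against 21127 in A1 and 20517 in A2, and its log2 fold change was -0.34 with an adjusted p of 0.496 in that table.

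Among 7 repressors of epithelial junction genes Snai1 alone rose in the authors' test, and 0 fell. That test called 2.28% of genes whose mean reached 10 higher and 2.84% lower. One of the 7, Twist2, is also among the feeder fibroblast markers. Snai1 encodes Snail, a repressor known to bind E-box sequences. Snai1 had 2731 normalized counts in B1 and 2712 in B2, against 911 in A1 and 938 in A2. It rose by 1.56 in the authors' deposited table (adjusted p 5.43e-12), with a limma adjusted p of 0.0255. Tcf3, the E-box protein E2A in mice, had 16849 in B1 and 18132 in B2, against 16495 in A1 and 17765 in A2. Zeb1 had 2588 in B1 and 2762 in B2, against 2442 in A1 and 2991 in A2. The log2 fold changes of Tcf3 and Zeb1 in the authors' deposited table were 0.03 and -0.02, each with an adjusted p of 1.

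**Figure D4:**
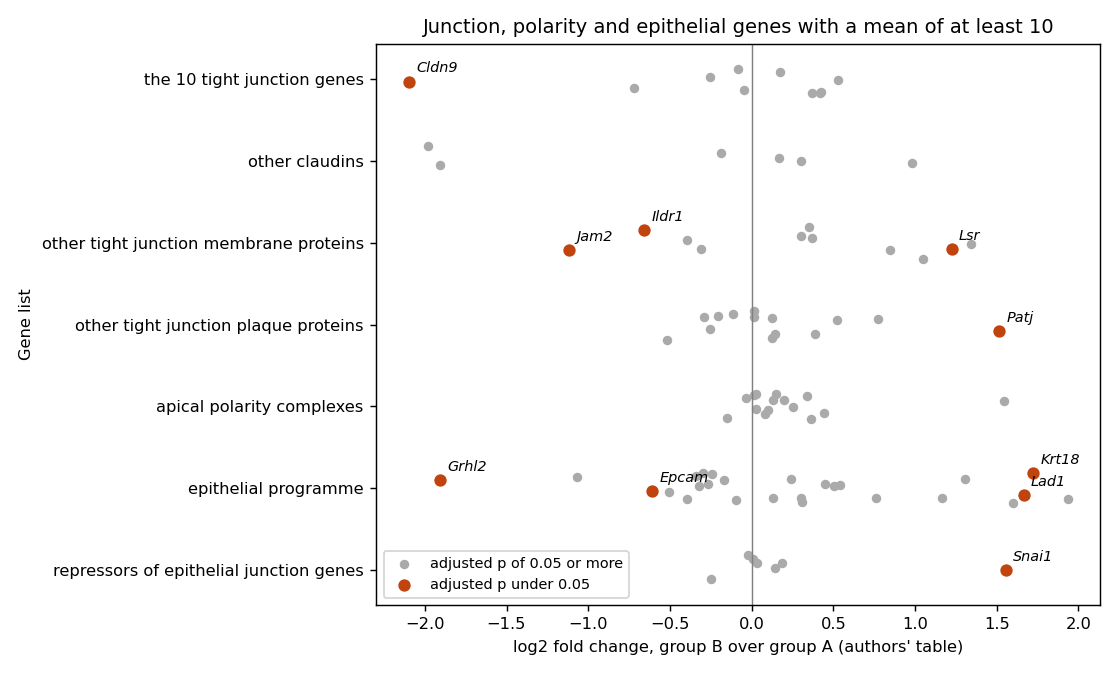
Log2 fold change, group B over group A, in the authors' deposited table for genes with a mean of at least 10, by list. Red points passed an adjusted p of 0.05 and are named. The called genes lie on both sides of 0, and 1 of the 10 tight junction genes is among them.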

How the data were processed

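Polyadenylated RNA of 4 samples was sequenced from stranded libraries, per the labels' protocols. Per the submitters' processing notes STAR and DESeq were used with mm10. No source used here names the read counter, its strand setting or the annotation. The authors deposited 1 table, with group mean normalized counts, the fold change as a ratio, the log2 fold change, and a p-value with its Benjamini-Hochberg adjustment over 30237 genes, per the file headers. Since neither header nor labels tie groups A and B to a genotype, no genotype was assigned.

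From the deposited group means, 2 whole read counts per gene were recovered for each group, with the smallest means giving the value of 1 read. All 28353 genes of group B and 28616 of group A with a mean came out whole within 1e-06. For 11 genes of group B and 1700 of group A another pair met the tolerance too, at a distance at least 201 and 20.5 times the chosen one. In simulated means, 100% of genes were recovered. The authors' adjusted p, with a threshold of 0.05, is the main test. Limma's trended test (3.58.1, R 4.3.3) on log2(normalized count + 1), over 20465 genes with a mean of at least 10, is an alternative. It was also run on simulated counts in which genes varied independently with the same dispersion. The libraries here need not vary so, and that run does not show how limma performs on them. No count model was run on the recovered reads. The labels call the samples biological replicates without saying that they are separate cultures. The p-values therefore rest on the spread between these samples, and in limma also on the variance trend over all tested genes.

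The 10 genes, the wider gene lists and the markers were chosen with earlier results of these data known. The text names the 10 genes, every gene of a wider list past the threshold and the 2 most abundant of each list, Gsk3a and Gsk3b. The rule also allows up to 4 genes of each marker list, which are given here as sums. Afp and genes overlapping a named gene were added after their values were seen. Gene positions and exon lengths are those of GENCODE M21 (mm10), in which 46005 of 46603 IDs were found, and promoters those of RefSeq. Alternatives were another test, threshold, filter, pseudocount, scaling and promoter window, and leaving out each library.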

Additional observations from a re-analysis of the deposited data

How the results depend on the processing

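The authors' test called 1047 genes, and 674 at an adjusted p of 0.01. Limma called 411, with 3 at an adjusted p of 0.01, 439 at a mean of at least 50, 412 with no filter, 501 with a pseudocount of 10, 448 scaled by library total and 570 by upper quartile. Leaving out a library in limma gave 0 to 1111 genes, with 0 without A1 (2420 at an unadjusted p under 0.05), 0 without A2 (2034), 997 without B1 and 1111 without B2. Members called higher numbered 0 throughout. Members called lower numbered 1 in the authors' test and 0 at an adjusted p of 0.01, when readjusted over a mean of at least 50 (which Cldn9 does not reach), and in limma except with a pseudocount of 10 or upper quartile scaling. Leaving out a library gave 0 to 1 members lower. Of the wider lists 9 genes were called, 0 in limma at an adjusted p of 0.01, and 0 to 14 when a library was left out. The median log2 fold change of the 10 genes ran from -0.38 to 0.35 when a library was left out. The sign of Prkci turned to -0.0016 under upper quartile scaling. Leaving out a library turned signs, with log2 fold changes of -0.31 to 0.79 for Cldn1, -0.67 to 0.35 for Cldn4, -1.21 to 0.31 for Cldn6, -0.45 to 0.96 for Cldn7, -0.22 to 0.15 for Tjp1, -0.015 to 0.34 for Cgn and -0.10 to 0.85 for Crb3. The same was so for Prkci (-0.089 to 0.13), Dlg1 (-0.060 to 0.24), Zeb1 (-0.16 to 0.13) and Tcf3 (-0.023 to 0.084). The cause was not tested. With 1 library left in a group, that library is assumed to vary like the other group. No paired analysis was possible because the deposited columns carry no replicate numbers. Few reads limit Cldn9 and Cldn1.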
